A study of Mus musculus with 11 samples.

Results

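A set of 10 genes used to follow the maturation of Mueller glia was examined in bulk RNA-seq of mouse retina: Glul, Rlbp1, Car14, Aqp4, Apoe, Clu, Dkk3, Sox9, Hes1 and Vim. The members were named by symbol and matched to Ensembl IDs, and all 10 were found among the 47069 genes of the count files. All 10 were among the 18188 genes that passed the filter on low counts. The libraries came from C57BL/6 mice of 2 genotypes at postnatal days 4 and 8 (P4 and P8). P4 was represented by 2 wild-type and 3 Brn3b-Kir2.1 libraries, and P8 by 3 and 3. In Brn3b-Kir2.1 mice a CAG promoter drives a human Kir2.1 cDNA joined to eYFP once Cre has removed a STOP cassette. Kir2.1 is a potassium channel that rectifies inward and holds neurons near their resting potential. Cre comes from Brn3b, a transcription factor gene of retinal ganglion cells. The labels disagree on the control, which is wild type in the genotype field and Brn3b-Cre in the protocol, and on the later age, which is P8 in the age field and P11 in the protocol. The source field names ganglion cells, while tissue is given as retina and the protocol dissociates it and names no cell sorting. Ages and genotypes below follow the sample fields, and "Kir2.1" below stands for Brn3b-Kir2.1. Neither the number of animals behind a library nor whether animals were pooled is given, so p-values measure the spread between these libraries, which may be partly technical.

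Mueller glia are the main glia of the retina. They span its depth, take up and recycle glutamate, move water and potassium, and regenerate chromophore for cones. They are the last cell type to leave the pool of retinal progenitors, at about the end of neurogenesis in the days after birth in the mouse, and they keep expressing many genes that progenitors already use. The members were therefore taken in 2 groups by role. Sox9 and Hes1, a transcription factor and a Notch effector that keep progenitors and glia from becoming neurons, and Vim, an intermediate filament protein, are expressed in progenitors as well as glia. Glul (glutamine synthetase), Rlbp1 (the retinaldehyde-binding protein CRALBP), Car14 (a membrane carbonic anhydrase), Aqp4 (the glial water channel), Apoe and Clu (secreted lipid carriers or chaperones) and Dkk3 (a secreted protein related to Wnt inhibitors) were taken as genes of glial function. Being placed there does not mean that a gene is absent from progenitors. The genes, all protein-coding, are named with their Ensembl IDs and GRCm38 positions where each is first described. None of the 10 is limited to Mueller glia in the eye, since pigment epithelium, astrocytes, microglia or neurons express some of them.

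Values are CPM, a gene's count relative to the total gene count of its library after TMM scaling, from libraries with 9362215 to 12478838 counts in genes. Fold changes and adjusted p-values come from edgeR's quasi-likelihood test, fitted and adjusted over 18188 genes. A gene passed at an adjusted p under 0.05, and intervals are 95% intervals of the log2 fold change. Wild-type P4 replicate 2 stood apart. Its 12 genes of dividing progenitors (such as Mki67 and Top2a) summed to 1339 CPM, against 2854 to 3523 CPM in the other P4 libraries and 189 to 259 CPM at P8. At P8, the 8 rod genes summed to 753 CPM in wild-type replicate 1 and 3049 CPM in replicate 2, against 6380 to 6837 CPM in the other 4 libraries. Kir2.1 P8 replicate 2 had a count for 31325 genes, against 22609 to 24591 in the others. The part of these differences in the results below was not tested, and calls that changed without a library are given beside the result.

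**Figure D1:**
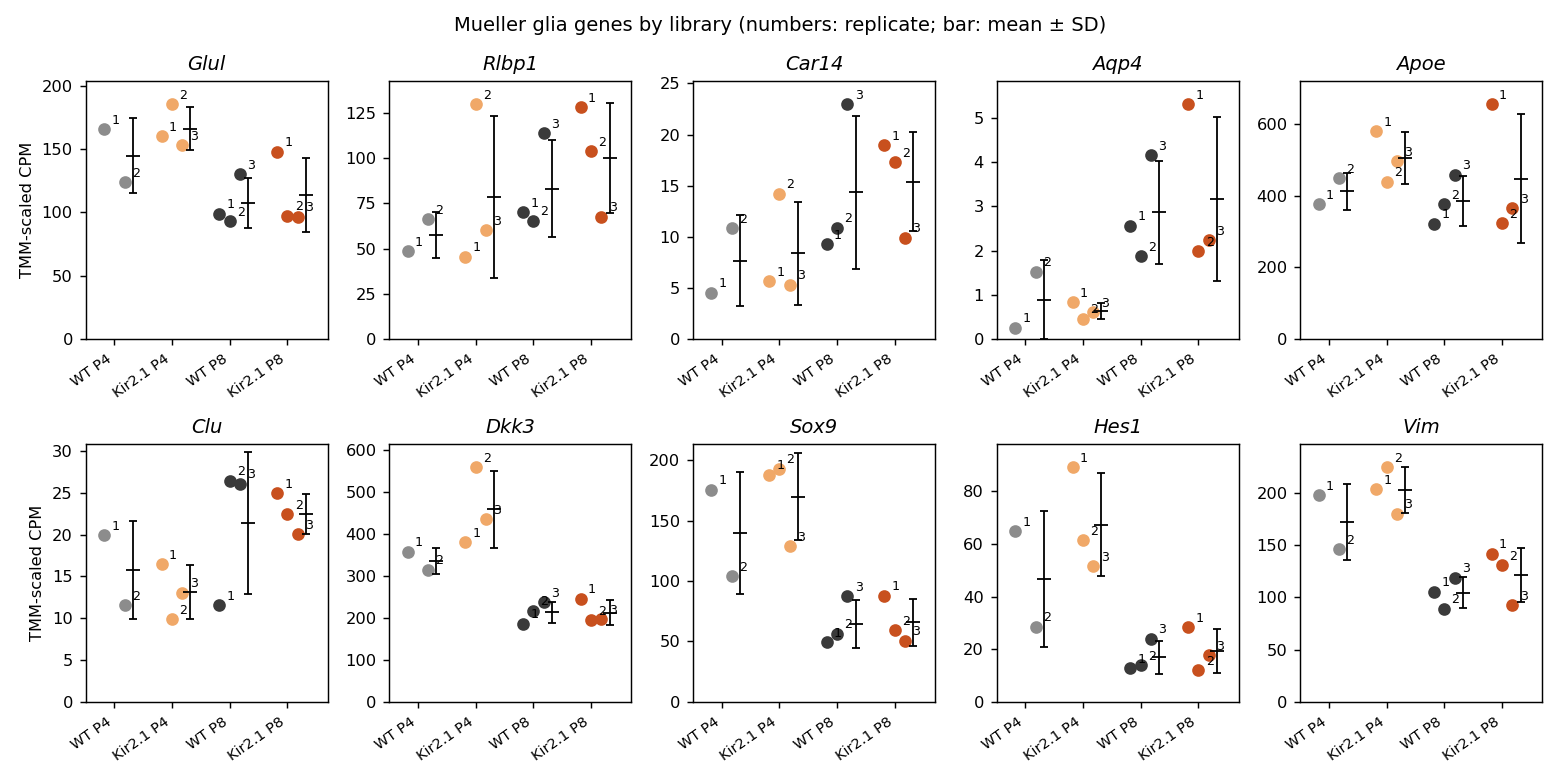
TMM-scaled CPM (vertical axis, from 0) of each gene in each of the 11 libraries, by genotype and age, with the replicate number beside each point and the group mean ± SD as a bar. Sox9, Hes1, Vim and Dkk3 are lower in each P8 library than in each P4 library, and Aqp4 is higher.

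The first comparison asked how the genes changed between P4 and P8. In Kir2.1 retinas 4 members fell (Dkk3, Sox9, Hes1 and Vim), 1 rose (Aqp4) and 5 did not pass. Over all genes, 16.7% passed in this comparison, 8.73% lower and 7.93% higher, and 7 members had an unadjusted p under 0.05, where 29.7% of all genes did. In wild-type retinas 0 members passed in edgeR, where 4.39% of all genes did; 5 members and 19.6% of all genes had an unadjusted p under 0.05, and DESeq2 called 4 members, all lower (Sox9, Hes1, Dkk3 and Vim), and 1545 of all genes, 1004 of them lower. In wild type every P8 library lay above every P4 library for 1 member (Aqp4, 14.2% of all genes) and below for 4 (Sox9, Hes1, Dkk3 and Vim, 16.9%). In Kir2.1 it lay above for 2 (Aqp4 and Clu, 19.4%) and below for 5 (the same 4 and Glul, 18.7%). The median log2 fold change of the 10 members was -0.27 for wild type and -0.36 for Kir2.1, beside 0.03 and 0.00 over all genes tested. Whether the change with age differed between genotypes was tested as an interaction, and 0 of 10 members and 0% of all genes passed in edgeR. In that test 0 members and 3.09% of all genes had an unadjusted p under 0.05, and DESeq2 called 0 genes. In bulk retina, fewer cells of a type and less RNA per cell cannot be told apart.

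The 3 members grouped as shared with progenitors all fell in Kir2.1. Here and below, values of a group are in the order of its replicate numbers. Sox9 (ENSMUSG00000000567, chromosome 11, 112782224 to 112787760, plus strand) read 176 and 104 CPM in wild type and 188, 193 and 129 CPM in Kir2.1 at P4. The P8 values were 49.5, 56.3 and 87.3 CPM in wild type and 87.7, 59.2 and 50.5 CPM in Kir2.1. The ages did not overlap in either genotype, and the lowest P4 value was that of wild-type replicate 2. The log2 fold change was -1.37 ± 0.28 (SE) in Kir2.1, a level 2.58-fold lower at P8 (edgeR adjusted p = 0.00574), and -1.12 ± 0.30 in wild type (edgeR adjusted p = 0.0584). Without wild-type P4 replicate 2, the wild-type change was -1.44 and passed (edgeR adjusted p = 0.0217), as it did without wild-type P8 replicate 3 (-1.40, edgeR adjusted p = 0.0196). Without wild-type P4 replicate 1, the other of the 2 wild-type P4 libraries, it was -0.70 (edgeR adjusted p = 0.732).

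Hes1 (ENSMUSG00000022528, chromosome 16, 30064384 to 30067796, plus strand) had the largest decrease of the 10. It was at 64.9 and 28.5 CPM in wild type and 89.2, 61.4 and 51.4 CPM in Kir2.1 at P4, then 12.7, 13.9 and 23.9 CPM and 28.3, 11.9 and 17.8 CPM in the same order at P8. Each P4 library was above each P8 library, though wild-type P4 replicate 2 lay only just above Kir2.1 P8 replicate 1. The fall was 3.47-fold in Kir2.1 (log2 fold change -1.79 ± 0.38, edgeR adjusted p = 0.00716). In wild type the log2 fold change was -1.47 ± 0.41 (edgeR adjusted p = 0.0672), and -1.94 without wild-type P4 replicate 2 (edgeR adjusted p = 0.0165) or -1.81 without wild-type P8 replicate 3 (0.0347). It shrank to -0.76 without wild-type P4 replicate 1 (edgeR adjusted p = 0.813).

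Vim (ENSMUSG00000026728, chromosome 2, 13573927 to 13582826, plus strand) changed less. Its values were 198 and 146 CPM in wild type and 203, 225 and 180.3 CPM in Kir2.1 at P4, and 106, 89.3 and 119 CPM and 142, 131 and 92.7 CPM at P8. The ages again did not overlap, but wild-type P4 replicate 2 and Kir2.1 P8 replicate 1 were close, at 146 and 142 CPM. The log2 fold change was -0.74 ± 0.18 in Kir2.1 (edgeR adjusted p = 0.0145) and -0.72 ± 0.20 in wild type (edgeR adjusted p = 0.0609). The Kir2.1 call was lost without Kir2.1 P4 replicate 2 (edgeR adjusted p = 0.0579) or Kir2.1 P8 replicate 3 (0.0578). The wild-type change passed without wild-type P4 replicate 2 (edgeR adjusted p = 0.032), Kir2.1 P8 replicate 3 (0.0396) or wild-type P8 replicate 3 (0.0462), and was -0.49 without wild-type P4 replicate 1 (0.706).

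Dkk3 (ENSMUSG00000030772, chromosome 7, 112116017 to 112159057, minus strand), listed among the genes of glial function, fell with these 3 in Kir2.1. Its P4 values were 357 and 314 CPM in wild type and 379.9, 558 and 435 CPM in Kir2.1. At P8 the values were 186, 217 and 236 CPM in wild type and 246, 194 and 196 CPM in Kir2.1. All P8 libraries were below all P4 libraries, the nearest being wild-type P4 replicate 2 and Kir2.1 P8 replicate 1. The fall was 2.16-fold in Kir2.1 (log2 fold change -1.11 ± 0.16, edgeR adjusted p = 0.000746), the smallest p of any member, and the log2 fold change in wild type was -0.65 ± 0.17 (edgeR adjusted p = 0.0522). The wild-type change passed without wild-type P8 replicate 3 (edgeR adjusted p = 0.0423) or Kir2.1 P4 replicate 1 (0.0466) or 2 (0.0348), and was -0.56 without wild-type P4 replicate 1 (0.515).

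The summed CPM of the 12 dividing-progenitor genes moved in the same direction, from 1339 to 3523 CPM at P4 to 189 to 259 CPM at P8, and 12 of 12 passed as lower in each genotype, with none at 0 in any group. Their median log2 fold change was -3.46 for wild type and -3.27 for Kir2.1, larger than that of any member. Other cell types moved with age as well. Of 8 ganglion cell genes, 8 fell in each genotype, with a median log2 fold change of -3.05 for wild type and -1.91 for Kir2.1. Of 8 rod genes, 8 rose in Kir2.1 (median 3.57), and in wild type 0 passed in edgeR and 8 had an unadjusted p under 0.05 (median 2.35). The part of these cells in the members' changes was not tested.

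Glul (ENSMUSG00000026473, chromosome 1, 153899944 to 153909723, plus strand) lay between these genes and the rest. It was at 166 and 124 CPM in wild type and 160.3, 185 and 153 CPM in Kir2.1 at P4, then 99.0, 92.9 and 130.1 CPM and 148, 97.4 and 96.7 CPM at P8. The ages overlapped through wild-type P4 replicate 2, which was below wild-type P8 replicate 3 and Kir2.1 P8 replicate 1. Its log2 fold change did not pass in either genotype, at -0.54 ± 0.19 in Kir2.1 (edgeR adjusted p = 0.0729) and -0.43 ± 0.21 in wild type (edgeR adjusted p = 0.288). Leaving out wild-type P4 replicate 1 gave -0.21 in wild type, and leaving out replicate 2 gave -0.63. In Kir2.1 it passed without Kir2.1 P8 replicate 1 (-0.78, edgeR adjusted p = 0.0197) or wild-type P8 replicate 3 (0.0423), and in DESeq2 (adjusted p = 0.0454). Glul shares 116 exon bases with Teddm2 on the opposite strand and 93 with Mir8114 in the GRCm38 annotation, and the strand setting of the counting is not given in the sources used here.

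Aqp4 (ENSMUSG00000024411, chromosome 18, 15389496 to 15410982, minus strand) was the member that rose in Kir2.1, from a low level. It had 3 and 18 counts in wild type and 9, 6 and 7 in Kir2.1 at P4, and 28, 22 and 51 counts and 64, 19 and 25 counts at P8. The counts correspond to 0.461 to 1.52 CPM in the P4 libraries other than wild-type replicate 1 (0.26 CPM), and 1.87 to 5.30 CPM at P8. Each P8 library was above each P4 library. The log2 fold change was 2.31 ± 0.66 in Kir2.1 (edgeR adjusted p = 0.0314) with an interval from 0.89 to 3.74, and 1.67 ± 0.73 in wild type (edgeR adjusted p = 0.231). The Kir2.1 call was lost when Kir2.1 P4 replicate 1, 2 or 3 or Kir2.1 P8 replicate 1 was left out, with edgeR adjusted p from 0.0713 to 0.144. The wild-type value depended on the 2 P4 libraries, at 0.90 without replicate 1 (edgeR adjusted p = 0.886) and 3.43 without replicate 2 (0.0642). Among astrocyte genes, which could mark another source of Aqp4, 0 of 4 passed in either genotype, none was at 0, and the list (Gfap, Pax2, Pdgfra and S100b) summed to 52.8 to 87.4 CPM at P4 and 42.3 to 78.8 CPM at P8. Most of the sum was Pdgfra, at 45.1 to 63.5 CPM at P4 and 31.1 to 58.3 CPM at P8. In wild type Gfap was higher in each P8 than in each P4 library, and in Kir2.1 Pax2 was lower. The part of astrocytes in Aqp4 was not tested.

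**Figure D2:**
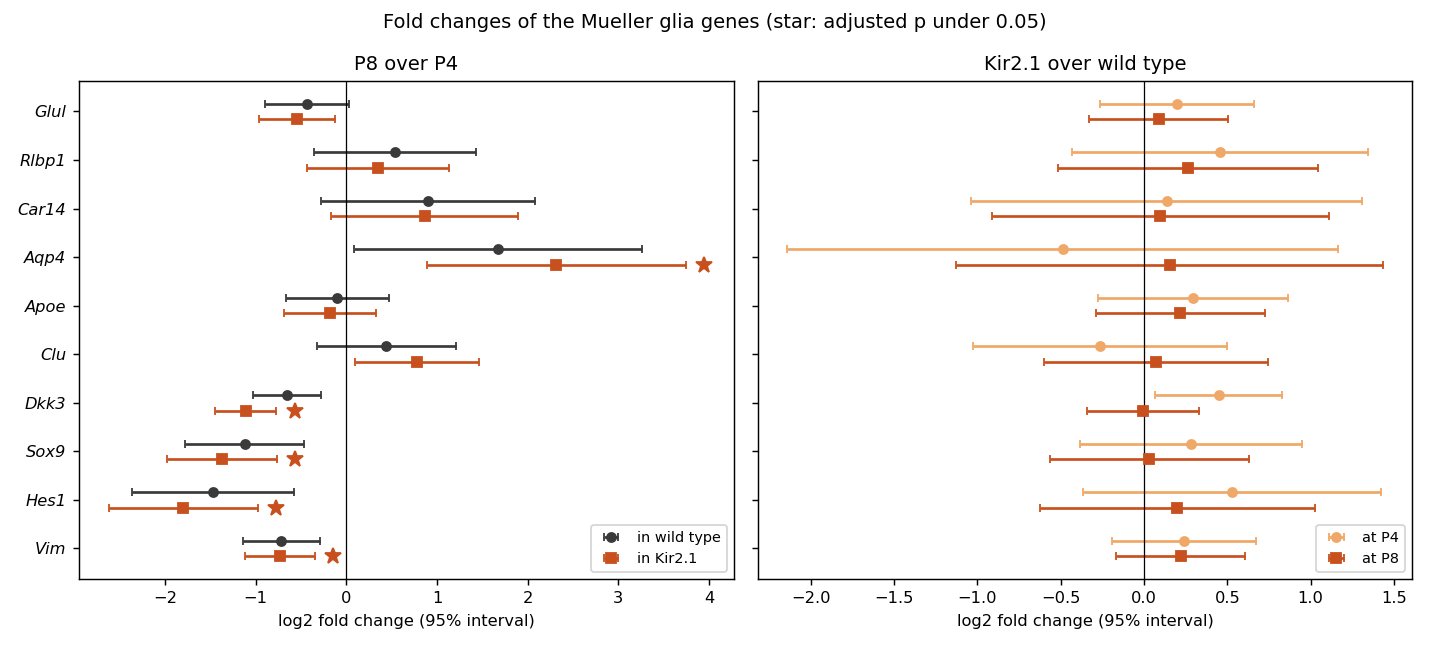
Log2 fold change of each gene with its 95% interval, P8 over P4 in each genotype (left) and Kir2.1 over wild type at each age (right), with a star at an edgeR adjusted p under 0.05. The 5 stars are all for P8 over P4 in Kir2.1, and for each gene the intervals of the 2 genotypes overlap on the left.

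Rlbp1 and Car14 varied widely between libraries of a group, and the ages overlapped. Rlbp1 (ENSMUSG00000039194, chromosome 7, 79374870 to 79387048, minus strand) was at 48.4 and 66.2 CPM in wild type and 45.6, 129.6 and 60.3 CPM in Kir2.1 at P4, then 70.1, 65.4 and 114 CPM and 128, 104 and 67.7 CPM at P8. Kir2.1 P4 replicate 2 was above every P8 library. Car14 (ENSMUSG00000038526, chromosome 3, 95897768 to 95904691, minus strand) was at 4.53 and 10.8 CPM in wild type and 5.67, 14.2 and 5.34 CPM in Kir2.1 at P4, then 9.25, 10.9 and 22.9 CPM and 19.0, 17.3 and 9.91 CPM at P8. The same 2 P4 libraries were highest for both genes, Kir2.1 replicate 2 and then wild-type replicate 2. At P8 both had their 3 highest values in wild-type replicate 3 and Kir2.1 replicates 1 and 2. Neither passed for age. For Rlbp1 the log2 fold change was 0.54 ± 0.41 for wild type and 0.35 ± 0.36 for Kir2.1 (edgeR adjusted p = 0.533 and 0.584), and that of Car14 was 0.90 ± 0.54 and 0.87 ± 0.47 (edgeR adjusted p = 0.41 and 0.252). Car14 in wild type went to 1.67 without wild-type P4 replicate 2 (edgeR adjusted p = 0.206) and to 0.39 without wild-type P8 replicate 3, and in Kir2.1 to 1.48 without Kir2.1 P4 replicate 2 (0.0734). Rlbp1 in Kir2.1 went to 0.047 without Kir2.1 P4 replicate 1 and 0.91 without replicate 2 (edgeR adjusted p = 0.958 and 0.0787), and in wild type to 0.24 without wild-type P8 replicate 3.

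Rlbp1 is also a gene of the pigment epithelium. Of 11 pigment epithelium genes, 1 (Rpe65) was at 0 in the wild-type P4 group and 2 (Rpe65 and Tyr) in the Kir2.1 P4 group, so both were at 0 in Kir2.1 P4 replicate 2, where Rlbp1 was highest. The summed list was 71.2 CPM in that library and 37.8 to 55.2 CPM in the other P4 libraries. Of the 71.2 CPM, 56.6 were from Rrh, the opsin peropsin, named after its value was seen. At P8 the sum was highest in Kir2.1 replicate 2 (58.4 CPM), against 28.3 to 34.96 CPM in the other 5. The part of pigment epithelium in Rlbp1 was not tested. Car14 shares 445 exon bases with Aph1a, a ubiquitous secretase subunit on the opposite strand, so its count is uncertain to that extent.

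Promoters are shown for Rlbp1 and Car14, which are among the 5 members with a RefSeq entry, though neither passed for age. With Vim and Glul they had a smaller unadjusted p for age in Kir2.1 than Apoe, the other member with an entry. The windows of Rlbp1 and Car14, unlike those of Vim and Glul, lie mostly outside exons. The sequences are from RefSeq's GRCm38.p6 starts, 5′ to 3′ on the minus strand, 250 bases before the start site less the bases that GENCODE places in an exon. Rlbp1 is at chr7:79387049-79387277, where the capitals mark the reverse complement of ACAAAG, the SOX core. Car14 is at chr3:95904692-95904935, where they mark TAATCC, the core bound by CRX and OTX proteins.
Rlbp1: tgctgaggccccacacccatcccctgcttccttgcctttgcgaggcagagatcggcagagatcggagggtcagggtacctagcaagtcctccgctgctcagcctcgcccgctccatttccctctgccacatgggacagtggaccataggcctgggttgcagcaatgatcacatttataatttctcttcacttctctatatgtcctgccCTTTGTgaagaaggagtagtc
Car14: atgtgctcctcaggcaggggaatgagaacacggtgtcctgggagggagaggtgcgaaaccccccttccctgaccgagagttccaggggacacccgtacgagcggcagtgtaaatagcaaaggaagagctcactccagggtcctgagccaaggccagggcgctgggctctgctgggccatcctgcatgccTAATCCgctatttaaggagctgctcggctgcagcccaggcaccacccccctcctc

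The 2 promoters shared none of the 5 motifs searched. RefSeq entries were found for 5 of the 10 members (Glul, Rlbp1, Apoe, Vim and Car14), with 3 starts for Apoe. Both strands were searched from 250 bases before to 50 after each start, and no matches of different motifs overlapped. ACAAAG was in Rlbp1 and Apoe, and in 18.7% of 32851 mouse promoters. TAATCC was in Car14 and Apoe, and in 7.06% of all promoters. The N-box CACNAG, a site bound by Hes proteins, was in Glul, Apoe and Vim, and in 42.5%. The NFI half-site TTGGCA (14.1%) and the RBPJ core TGGGAA (25.6%) were each in Apoe only. A match is a stretch of letters and shows no binding.

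Clu and Apoe did not pass for age. Clu (ENSMUSG00000022037, chromosome 14, 65968483 to 65981547, plus strand) was at 19.9 and 11.6 CPM in wild type and 16.5, 9.90 and 13.0 CPM in Kir2.1 at P4, then 11.5, 26.5 and 26.1 CPM and 24.9, 22.4 and 20.1 CPM at P8. In Kir2.1 the ages did not overlap, with P8 higher, as for 19.4% of all genes. Its log2 fold change was 0.78 ± 0.31 in Kir2.1 (edgeR adjusted p = 0.117), and passed without wild-type P8 replicate 1 (0.75, edgeR adjusted p = 0.0424) or with only the Kir2.1 libraries fitted (0.0153). In wild type the value was 0.44 ± 0.35 (edgeR adjusted p = 0.552), with P8 replicate 1 below both other P8 libraries and below P4 replicate 2. It went to 0.88 without wild-type P4 replicate 1 and to 0.10 without replicate 2.

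Apoe (ENSMUSG00000002985, chromosome 7, 19696109 to 19699188, minus strand), a gene of microglia and astrocytes as well as Mueller glia, was at 376 and 449 CPM in wild type and 581, 439 and 496 CPM in Kir2.1 at P4, then 322, 376 and 458 CPM and 655, 324 and 365 CPM at P8. The ages overlapped in both genotypes, and the log2 fold change was -0.10 ± 0.26 for wild type and -0.17 ± 0.23 for Kir2.1 (edgeR adjusted p = 0.883 and 0.685). Of 8 microglia genes 0 passed in either genotype, 6 passed as lower at P8 over both genotypes together, and none was at 0. Their sum was 183 to 389 CPM at P4 and 85.8 to 286 CPM at P8. The highest P8 value of both Apoe and the microglia sum was in Kir2.1 replicate 1, and the lowest values of both were in Kir2.1 replicate 2 and wild-type replicate 1. At P4 their orders differed, as Apoe was higher and the microglia sum lower in wild-type replicate 2 than in replicate 1, and in Kir2.1 Apoe was highest in replicate 1 and the sum in replicate 3. Without Kir2.1 P8 replicate 1 the Kir2.1 log2 fold change of Apoe went from -0.17 to -0.55. The part of microglia in Apoe was not tested.

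**Figure D3:**
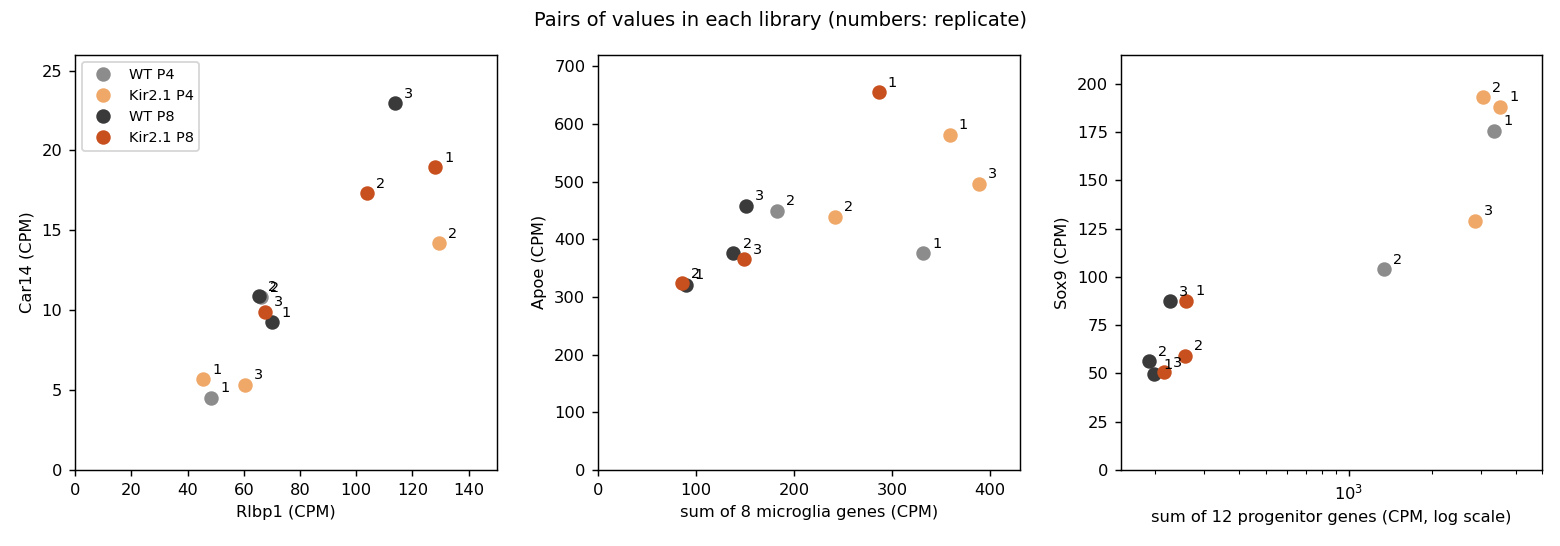
Each point is a library, coloured by group and numbered by replicate: Car14 against Rlbp1 (left), Apoe against the summed microglia genes (middle) and Sox9 against the summed dividing-progenitor genes on a log axis (right), all in TMM-scaled CPM. Wild-type P4 replicate 2 lies between the ages on the right, at 1339 CPM of progenitor genes and 104 CPM of Sox9.

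The change with age averaged over both genotypes was added after the values were seen, since it uses all 5 P4 and all 6 P8 libraries. It called 6 of 10 members, 5 lower and 1 higher, where 22.8% of all genes were called, 12.1% lower and 10.7% higher. The 6 were the 5 called in Kir2.1 and Glul (log2 fold change -0.49 ± 0.14, edgeR adjusted p = 0.0271). The Glul call was lost without any of 5 libraries: wild-type P4 replicate 1 (adjusted p = 0.163 in edgeR), Kir2.1 P4 replicate 2, and at P8 replicate 2 of each genotype or replicate 3 of Kir2.1. That of Aqp4 was lost without wild-type P4 replicate 1 (adjusted p = 0.0572 in edgeR). Conversely Rlbp1 (0.73) and Car14 (1.20) passed as higher at P8 without Kir2.1 P4 replicate 2 (edgeR adjusted p = 0.0352 and 0.0291), and Clu (0.74) without wild-type P8 replicate 1 (0.0121). In 5 members (Sox9, Hes1, Dkk3, Vim and Aqp4) every P8 library lay on the same side of every P4 library, 4 lower and 1 higher, where 11.6% of all genes did so (7.1% lower and 4.55% higher).

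Of 25 other Mueller glia genes, written from general knowledge, all were tested. The list was chosen with earlier results of these data known, so it is no independent check of the members. In wild type 4 fell, 0 rose and 21 did not pass, where 4.39% of all genes passed. In Kir2.1 6 fell, 1 rose and 18 did not pass, where 8.73% of all genes passed as lower and 7.93% as higher. The fold change was above 0 in 10 of the 25 in wild type and in 9 in Kir2.1. The 4 that fell in wild type were Hes5, a Notch effector related to Hes1 (log2 fold change -1.73 ± 0.24, edgeR adjusted p = 0.00167), Sox8, a relative of Sox9 (-1.61 ± 0.32, 0.0125), Ednrb, the endothelin B receptor (-1.63 ± 0.33, 0.0146), and Lhx2, a transcription factor of progenitors and glia (-1.26 ± 0.31, 0.0385). These 4 also fell in Kir2.1, with log2 fold changes of -2.01, -1.81, -1.18 and -1.57. The 1 that rose in Kir2.1 was Abca8a, named after its value was seen (5.65 ± 1.15, edgeR adjusted p = 0.00596). In Kir2.1 it was at 0 to 0.35 CPM at P4 and 5.18 to 21.0 CPM at P8. The median log2 fold change of the 25 was -0.33 for wild type and -0.50 for Kir2.1. The summed CPM of the list overlapped between ages, at 1474 to 2377 CPM at P4 and 1221 to 1859 CPM at P8.

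The 2 role groups were most like different genes over the 11 libraries. Genes were ranked by Pearson r with the mean standardised log2 CPM of each group, among 12224 genes with a mean of at least 5 CPM. The 3 genes most like Sox9, Hes1 and Vim were Lhx2 (r = 0.99), Tspan14 (0.99) and Prex1 (0.99). Those most like the 7 genes of glial function were Col9a1 (r = 0.92), Lama5 (0.90) and Nfix (0.90). The libraries share the difference between ages, which enters the values for Sox9, Hes1 and Vim. The 7 genes of glial function moved both ways with age, as Dkk3 fell and Aqp4 rose in Kir2.1. Averaged over genotypes, neither Col9a1 nor Nfix passed for age (edgeR adjusted p = 0.63 and 0.549).

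**Figure D4:**
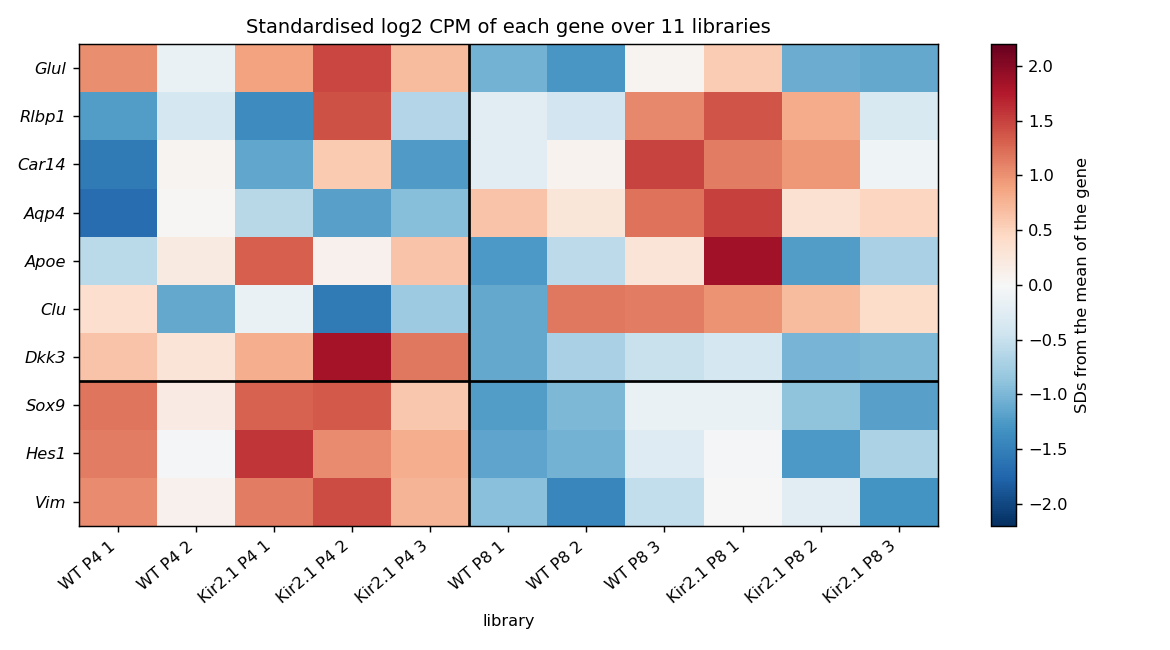
Log2 CPM of each gene, standardised over the 11 libraries (colour, in SDs from the gene's mean), with genes of glial function above the horizontal line and genes shared with progenitors below it, and P4 libraries to the left of the vertical line. Sox9, Hes1, Vim and Dkk3 are high at P4, least so in wild-type P4 replicate 2, where Hes1 is just below its mean (-0.04). Aqp4 is high at P8, and Kir2.1 P8 replicate 1 is the highest P8 library for 8 of the 10 genes.

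The comparison of genotypes asked whether the Mueller glia genes differ in the retina when ganglion cells carry Kir2.1. At P4, 0 of 10 members and 0% of all genes passed in edgeR. At an unadjusted p under 0.05 there was 1 member (Dkk3), where 7.22% of all genes were, and DESeq2 called 0 members and 34 of all genes. The fold change was above 0 in 8 of 10 members (51.3% over all genes), with a median of 0.26 beside 0.01 over all genes. No gene of the other lists passed in edgeR. Of the 25 other Mueller glia genes, 22 were above 0 (median 0.30), as were 12 of 12 dividing-progenitor genes (0.39), 8 of 8 microglia genes (0.27) and 10 of 10 early genes that respond to dissociation (0.56). Fewer were above 0 among vascular genes (2 of 9, median -1.07), rod genes (2 of 8, -0.28), the 7 tested pigment epithelium genes (3, -0.14) and astrocyte genes (2 of 4, 0.00). Of the 6 tested lens genes, of low level, 4 were above 0 (0.64). Their part in the members' values was not tested. Dkk3 was the only member whose groups did not overlap, with all 3 Kir2.1 libraries higher, as in 12.4% of all genes. Its log2 fold change was 0.45 ± 0.17, with an interval from 0.07 to 0.83 (edgeR adjusted p = 0.677), and 0.29 without Kir2.1 P4 replicate 2 (0.957). Hes1 had the largest fold change, 0.53 ± 0.41, with an interval from -0.37 to 1.42, and went to 0.05 without wild-type P4 replicate 2 and to 1.24 without wild-type P4 replicate 1.

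The other 8 members had log2 fold changes from -0.49 (Aqp4) to 0.46 (Rlbp1) at P4, each within an interval that includes 0. The narrowest was that of Vim, from -0.19 to 0.67, and the widest that of Aqp4, from -2.14 to 1.16. The value of Rlbp1 rested on Kir2.1 P4 replicate 2, and was -0.11 without it. In the same comparison the 8 ganglion cell genes had a median log2 fold change of -1.32, with 0 of 8 passing in edgeR and 7 of 8 at an unadjusted p under 0.05, and summed to 698 and 1102 CPM in wild type and 172 to 551 CPM in Kir2.1. Kir2.1 P4 replicate 2, which had the lowest ganglion cell sum, had the highest P4 value of 6 of the members (Glul, Rlbp1, Sox9, Dkk3, Vim and Car14) and the lowest of Clu. The part of these shifts in the members' values was not tested.

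In the authors' deposited table for P4, 1 member was called, Hes1, with a log2 fold change of 0.99 ± 0.26 (SE) and an adjusted p of 0.0111. That table called 2.27% of the 13830 genes that had an adjusted p. Dkk3 had 0.44 ± 0.17 (adjusted p = 0.174) in the authors' deposited table, close to the value computed here. Signs differed for Apoe, at -0.21 ± 0.19 (adjusted p = 0.795) in the authors' deposited table and 0.29 ± 0.26 here (edgeR adjusted p = 0.813). The libraries that entered the authors' deposited table are not given in the sources used here.

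At P8, 0 of 10 members and 0% of all genes passed in edgeR, 0 members had an unadjusted p under 0.05 (6.82% of all genes), and DESeq2 called 0 members and 3 of all genes. In 9 of 10 members the fold change was above 0 (50.5% over all genes), with a median of 0.13 beside 0.00 over all genes, and in 0 did the groups fail to overlap (10.6% of all genes). Of the 25 other Mueller glia genes 0 passed in edgeR and 20 were above 0 (median 0.16), as were 12 of 12 dividing-progenitor (0.27), 8 of 8 microglia (0.42), 8 of 8 rod (0.90) and 7 of 9 vascular genes (0.41). Of the 7 tested pigment epithelium genes 6 were above 0 (0.40), 3 of them at an unadjusted p under 0.05. In contrast 0 of 8 ganglion cell genes (median -0.24), 0 of 4 astrocyte genes (-0.30) and 3 of 10 dissociation genes (-0.17) were above 0. Of the 6 tested lens genes 3 were above 0 (-0.10). Their part in the members' values was not tested. The most precise value was that of Dkk3, -0.01 ± 0.15, with an interval from -0.34 to 0.33 (edgeR adjusted p = 0.995). The largest was that of Rlbp1, 0.26 ± 0.36, with an interval from -0.52 to 1.05 (edgeR adjusted p = 0.865), and was 0.56 when wild-type P8 replicate 3 was left out and 0.043 when Kir2.1 P8 replicate 1 was. Glul was at 0.09 ± 0.19 (interval from -0.33 to 0.50), Sox9 at 0.03 ± 0.27 (-0.57 to 0.63) and Vim at 0.22 ± 0.18 (-0.17 to 0.61). These intervals leave room for differences of such sizes in either direction, and do not show that the genotypes were alike.

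The same library was highest for most members at P8. Kir2.1 P8 replicate 1 had the highest P8 value of 8 members, all but Clu and Car14, and wild-type P8 replicate 3 the second highest of 7 of these (all but Vim) and of Clu. The lowest values were in wild-type replicate 1 for 5 members, in wild-type replicate 2 for 4 and in Kir2.1 replicate 2 for Hes1. Without Kir2.1 P8 replicate 1, the log2 fold changes of Glul (-0.15), Sox9 (-0.23), Hes1 (-0.19), Apoe (-0.16), Aqp4 (-0.44), Car14 (-0.08) and Clu (-0.01) were below 0, like that of Dkk3 (-0.13), and 0 members passed. That library also had the highest P8 sum of microglia (286 CPM) and vascular (522 CPM) genes, while its rod genes (6380 CPM) lay with those of the other Kir2.1 libraries. The vascular sum was nearly as high, at 502 CPM, in wild-type replicate 1, the lowest library for 5 members. Of the 522 CPM, 348 were from Kdr, named after its value was seen. The sum of 10 early genes that respond to dissociation was highest at P8 in wild-type replicate 3 (1312 CPM) and Kir2.1 replicate 1 (1017 CPM). It was 390 to 759 CPM in the other 4. Of these genes Hspa1a and Hspa1b, named after their values were seen, went the other way, with their lowest P8 values in wild-type replicate 3 (1.95 and 1.14 CPM). Wild-type replicate 3 also had the highest lens sum (27.1 CPM), and without it 219 of all genes passed between genotypes at P8. The part of these cells and genes was not tested. In the authors' deposited table for P8, which called 7.27% of 13396 genes, 0 of the 9 members with an adjusted p passed, and Aqp4 had none. The lowest was that of Rlbp1 (0.47 ± 0.24, adjusted p = 0.265).

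The genotype effect was then compared between ages. The nearest to a difference was Dkk3, whose Kir2.1 effect was lower at P8 than at P4 by a log2 fold change of -0.45 ± 0.23, with an interval from -0.96 to 0.05 (unadjusted p = 0.0743 and adjusted p = 1 in edgeR), and -0.29 without Kir2.1 P4 replicate 2. This interaction is the same contrast as the difference between genotypes in the change with age.

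Levels were compared between genes per length, as CPM per kilobase of the union of annotated exons (GRCm38). Apoe was highest in each group, at 193 ± 24 CPM per kb in wild type and 236 ± 33 in Kir2.1 at P4, and 180.2 ± 32.2 and 209.6 ± 84.3 at P8 (SD, n = 2 in wild type at P4 and 3 in the other groups). Dkk3 came next in each group, at 99.9 ± 9.1 and 136 ± 27 CPM per kb at P4 and 63.4 ± 7.5 and 63.1 ± 8.7 at P8, with no overlap with Apoe in any group. Glul was the third, at 43.6 ± 9.0 and 50.02 ± 5.09 CPM per kb at P4 and 32.3 ± 6.0 and 34.3 ± 8.8 at P8. At P4 the next were Vim (36.2 ± 7.7 and 42.8 ± 4.7), Sox9 (33.8 ± 12.2 and 41.1 ± 8.6), Hes1 (22.9 ± 12.6 and 33.1 ± 9.6) and Rlbp1 (19.4 ± 4.3 and 26.6 ± 15.2), and the ranges of Glul and of these 4 overlapped from each to the next.

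At P8 the order of the middle genes was different. Rlbp1, the seventh at P4, was the fourth at P8 in both genotypes, at 28.1 ± 9.0 CPM per kb in wild type and 33.8 ± 10.3 in Kir2.1. Its range overlapped those of Glul above it and of Vim (22.1 ± 3.1 and 25.7 ± 5.4) below it. Sox9 (15.6 ± 4.9 and 15.9 ± 4.7) overlapped Vim, and Hes1 (8.28 ± 3.01 and 9.49 ± 4.09) overlapped Sox9 in Kir2.1 but not in wild type. Clu, Car14 and Aqp4 were the lowest in each group, with Clu at 3.82 to 6.54, Car14 at 3.02 to 6.06 and Aqp4 at 0.102 to 0.509 CPM per kb as group means. Clu overlapped Hes1 at P8, Clu and Car14 overlapped in each group, and Aqp4 lay below both in each group.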

How the data were processed

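Per the submitters' processing notes, reads were processed with cutadapt 1.18, STAR 2.5.0c, SAMtools 1.9, bedtools 2.26.0 and HTSeq 0.6.1 on mm10, in roles that are not stated. The authors deposited raw counts per Ensembl gene, 1 file a library. The annotation and strand setting are not given in the sources used here. Records that name no gene (74.6% to 79.8% of records) were left out. The authors' deposited tables hold, per the file headers, a mean normalized count (signal), the log2 fold change, its SE, their ratio (a score), and the raw and adjusted p-value. The notes name DESeq2.

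Groups came from the titles. Of 47069 genes, 46488 had a symbol and 18188 passed filterByExpr. Counts were fitted in edgeR 4.0.16 (R 4.3.3) with TMM scaling and 4 group means over 11 libraries (7 residual and 5.05 prior degrees of freedom). Benjamini-Hochberg adjustment covered all genes tested. The alternatives were DESeq2 1.42.0 size factors, the DESeq2 test, no filter, only the libraries compared, a replicate block and leaving out libraries. Levels were also ranked with no length term, and motifs were also searched on the given strand only. Like patterns were ranked on log2 CPM with a prior count of 2, taking 3 genes a role group. Coordinates and exon lengths are those of GENCODE M21 (GRCm38). All members were named, and of the other glial genes up to 4 called for age, with Abca8a added after its value was seen. Sequences are for Rlbp1 and Car14, among the 4 of 5 members with a RefSeq entry that had the smallest p, though neither passed for age. Those of Vim and Glul were left out because their windows lie in annotated exons. The members and lists were chosen with earlier results of these data known.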

Additional observations from a re-analysis of the deposited data

How the results depend on the processing

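Counts of members called were 0 in each genotype comparison and in the interaction under every alternative run. For P8 against P4 in wild type the count of 0 went to 5 with no filter on low counts, 4 with the DESeq2 test, 3 without both wild-type P4 replicate 2 and wild-type P8 replicate 1 (chosen after seeing the data), and 0 to 4 when 1 library was left out. In Kir2.1 the count of 5 went to 8 with no filter, 7 with only the Kir2.1 libraries, 7 without both wild-type libraries, 6 with the DESeq2 test, and 3 to 6 when 1 library was left out. Averaged over genotypes, the 6 went to 9 with no filter, 7 with the DESeq2 test, 8 without both wild-type libraries and 4 to 7 when 1 library was left out. Deviations of same-numbered libraries from their group means correlated at 0.13 and 0.07 at P4 and at -0.08 to 0.09 at P8. With only 2 wild-type P4 libraries, whose deviations mirror each other, these values cannot decide whether replicate numbers pair the libraries. With the replicate block, 0 members were called in wild type and 4 in Kir2.1 (Aqp4 at an edgeR adjusted p of 0.0559), and Sox9 at P8 between genotypes was at -0.010. Wild-type P4 replicates 1 and 2 and wild-type P8 replicate 1 correlated best with the Kir2.1 library of their own number. Wild-type P8 replicates 2 and 3 did not.

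Over all genes, the 3029 calls for age in Kir2.1 went to 3661 with no filter, 4264 with only the Kir2.1 libraries and 3773 with the DESeq2 test. Averaged over genotypes, the 4140 calls went to 4624 with no filter and 4862 with the DESeq2 test. In the other comparisons, no filter gave 339 calls between genotypes at P4, 447 at P8, 136 for the interaction and 2058 for age in wild type, against 0, 0, 0 and 798. The DESeq2 test gave 34, 3, 0 and 1545. Only the wild-type libraries gave 113, and leaving out the 2 libraries named above 1845. Leaving out 1 library gave 0 to 6 at P4, 0 to 1 for the interaction, 0 to 219 at P8 (219 without wild-type P8 replicate 3) and 163 to 1339 for age in wild type, 1764 to 3676 in Kir2.1 and 2133 to 4417 on average.

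Signs of uncalled log2 fold changes reversed between genotypes, with ranges over the fits without 1 library. At P4 these were Sox9 (-0.046 to 0.70), Rlbp1 (-0.11 to 0.74), Car14 (-0.47 to 0.90), Clu (-0.60 to 0.17) and Aqp4 (-1.26 to 1.27). At P8 they were Glul (-0.15 to 0.25), Sox9 (-0.23 to 0.32), Hes1 (-0.19 to 0.54), Dkk3 (-0.13 to 0.075), Clu (-0.23 to 0.25), Aqp4 (-0.44 to 0.52), Apoe (-0.16 to 0.41) and Car14 (-0.14 to 0.61). With age, Apoe went from -0.24 to 0.037 in wild type and -0.55 to 0.013 in Kir2.1. Without the 2 wild-type libraries, Sox9 (-0.046) and Aqp4 (1.27) at P4, Sox9 (-0.13), Clu (-0.23) and Car14 (-0.14) at P8 and Apoe with age (0.13) also reversed. The cause was not tested. With only the P4 libraries, Aqp4 failed the filter and has no value. No called member reversed in any alternative. Fits that leave 1 wild-type P4 library assume that it varies like the other groups. Depth limits Aqp4, with 3 to 64 counts a library. By the mean of the groups, Glul, Vim, Rlbp1 and Sox9 ranked 3, 4, 5 and 6 per kb. With no length term Vim ranked 3, Glul 4, Sox9 5 and Rlbp1 6. On the given strand only, ACAAAG was in 0 of the 5 members with a promoter, against 2 on both strands. TAATCC was in 1, against 2.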
